A study of Mus musculus with 18 samples.

Results

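The ratio between doxycycline (DOX) treated and control embryoid bodies was compared at day 4 with the same ratio at day 3, to find the genes whose difference between the cultures itself changed within 1 day, and in particular those whose difference turned round. Embryoid bodies are aggregates in which embryonic stem cells differentiate, and those used here came from the mouse line i-Mixl1, named for the homeobox gene Mixl1. All groups share this line and its culture, so the only stated difference within a day is DOX, given at 0.1 ug/ml from 1 day after plating or not at all, and the labels name neither the number of clones behind the line nor the cells in which Mixl1 is active. No clone of Mixl1 itself was found among the 15247 gene probes, so its level could not be checked. The comparison used 12 of the 18 samples: 3 day 3 samples with DOX, 3 day 3 controls, 3 day 4 samples with DOX and 3 day 4 controls, described as biological replicates, hybridised as 3 arrays of a DOX and a control sample at each day. The arrays carry spotted mouse cDNA clones read in a red and a green channel. The measure is the change of the log2 ratio of red over green, day 4 minus day 3, in which a dye bias that a probe shows equally at both days drops out.

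The direction of the ratio is not settled. The deposited value table puts the DOX samples in the red channel, whereas the labels give the DOX samples the dye Cy3, which is read in the green channel, and the controls Cy5. All values below are red over green: by the value table a positive ratio means a higher level with DOX, and by the labels' dyes it means a higher level in the control. Which genes swapped sign, and by how much, is the same under both readings.

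Mixl1 is a paired-type homeodomain factor of the primitive streak, the structure through which epiblast cells leave the epithelium to form mesoderm and endoderm. Differentiating embryoid bodies pass through comparable states within a few days: streak genes such as Eomes and Mesp2 appear and then decline, pluripotency genes are lost, and blood, endothelial, cardiac and endodermal genes follow.

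Of 15243 probes tested, 1003 (6.58%) changed their ratio between the days at a Benjamini-Hochberg adjusted p of 0.05 (limma, 2652 at an unadjusted p below 0.05). Of these, 600 (3.94% of all) moved up and 403 (2.64%) moved down, a share of 59.8% up, against 48.9% of 708 probes when the authors' scaled values were used. The median change over all probes was 0.00. Counted as named genes, each by its brightest probe, 531 of 6019 (8.82%) changed, 307 (5.10%) up and 224 (3.72%) down. Msr1, at an adjusted p of 0.0495 and a change of 0.40, lay just inside the threshold, and Smad5, at 0.0505 and -0.40, just outside it. The 3 day 3 arrays did not overlap the 3 day 4 arrays for 20.8% of all probes, so a lack of overlap is common on these arrays.

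A sign swap was counted where the change passed the test and the ratio also passed it at each day with opposite signs. These conditions held for 183 probes (1.20%): 102 (0.669%) went from above 0 at day 3 to below 0 at day 4, and 81 (0.531%) the other way. By named gene there were 55 swaps downward (0.914%) and 44 upward (0.731%). The remaining changes were mostly a difference present on one of the days: of the 1003 probes, 34.6% had a ratio past the test at day 3 alone and 35.8% at day 4 alone, whereas 7.88% kept 1 sign at both days and 3.49% passed at neither. By gene the downward swaps covered 0.61 to 3.14 on the log2 scale, with a median of 1.07, and the upward swaps 0.49 to 2.02, with a median of 0.98. Upp1, Gas1 and Mesp2 had a ratio past 1 in size at both days. None of the upward swaps did. The ratio of a single day still holds a probe's dye bias, so its sign and fold, unlike the change, can depend on it. Of the 99 swap genes 3, Pdgfra among them, were well above background in neither channel on one of the days, so their sign on that day rests on dim spots. A channel is called dim at a day where its signal-to-noise ratio was below 1.4 on all 3 arrays, which leaves a bound, and a gene dim in both channels is called unreadable.

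**Figure D1:**
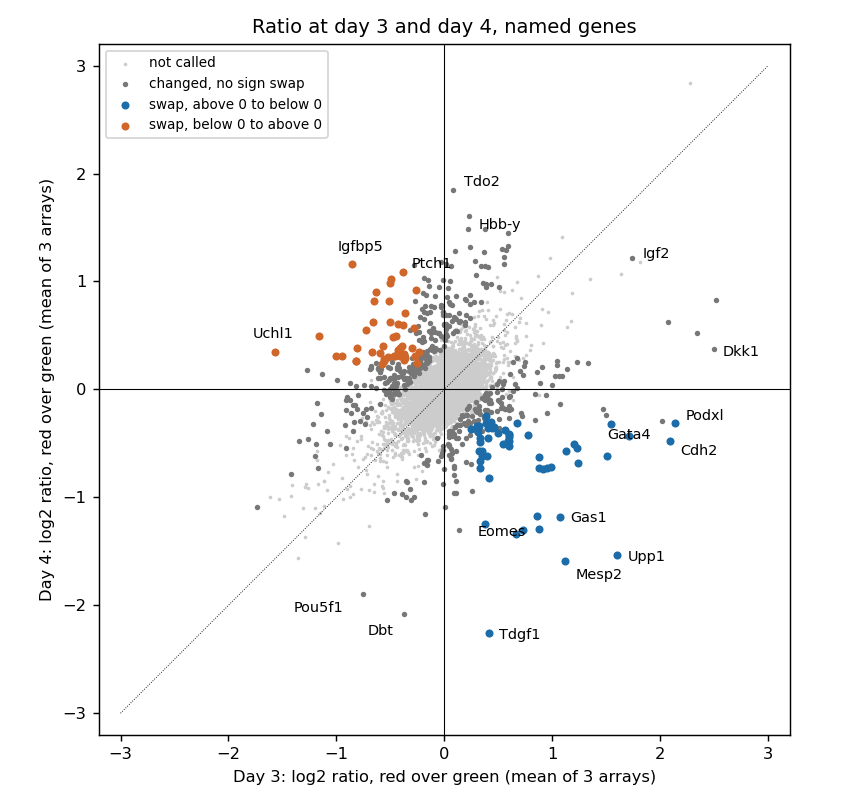
Mean log2 ratio of red over green at day 3 (horizontal) and day 4 (vertical) for each named gene, by its brightest probe, over 3 arrays a day. Blue points are the 55 genes that swapped from above 0 to below 0, orange points the 44 that swapped the other way, dark grey points other changed genes, and the dotted line marks equal ratios.

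Eomes, Mesp2 and Tdgf1 are the streak genes among the swaps, and the sequence just before their annotated starts is shown because Mixl1 belongs to the paired homeodomain class, whose members bind TAAT cores, alone or as inverted pairs. The windows are 250 bases upstream of the start in RefSeq on GRCm38.p6, 5′ to 3′ on the gene's strand: chr9:118477939-118478188 (plus strand) for Eomes, chr7:79810477-79810726 (plus strand) for Mesp2 and chr9:110946159-110946408 (minus strand) for Tdgf1. Capitals mark TAAT on either strand and the inverted pair TAATNNNATTA.
Eomes: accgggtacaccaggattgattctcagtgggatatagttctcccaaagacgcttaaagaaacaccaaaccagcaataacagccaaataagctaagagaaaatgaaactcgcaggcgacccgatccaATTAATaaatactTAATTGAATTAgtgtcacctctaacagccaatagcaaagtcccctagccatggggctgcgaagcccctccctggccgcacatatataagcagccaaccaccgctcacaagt
Mesp2: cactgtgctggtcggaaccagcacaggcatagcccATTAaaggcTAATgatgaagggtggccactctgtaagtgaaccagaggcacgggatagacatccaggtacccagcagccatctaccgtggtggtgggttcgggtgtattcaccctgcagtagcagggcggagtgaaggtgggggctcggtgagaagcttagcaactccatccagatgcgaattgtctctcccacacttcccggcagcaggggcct
Tdgf1: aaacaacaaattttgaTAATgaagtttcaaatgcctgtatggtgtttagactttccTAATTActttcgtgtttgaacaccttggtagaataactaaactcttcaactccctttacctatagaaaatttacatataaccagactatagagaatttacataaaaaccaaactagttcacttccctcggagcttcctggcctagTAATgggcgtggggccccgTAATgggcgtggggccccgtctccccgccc
The Eomes window holds the inverted pair TAATNNNATTA, which begins 111 bases before the start, and the Tdgf1 window holds TAATTA, which is its own reverse complement. Among all 27025 genes with such a window, 0.533% hold TAATNNNATTA, 5.65% hold TAATTA and 58.5% hold TAAT, with both strands searched and every longer site also counted as TAAT. Among the 4069 array genes with a window these shares were 0.246%, 3.10% and 45.7%. Of the 55 downward swap genes 44 had a window, of which 1 held TAATNNNATTA, 4 (9.09%) TAATTA and 25 (56.8%) TAAT. Of the 44 upward swap genes 38 had a window, of which 0, 1 (2.63%) and 17 (44.7%) held them. These are matches of letters and no test of binding was made.

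Of 4 measured streak and mesendoderm genes 3 fell and 0 rose, with a median change of -2.42, beside 3.72% of all named genes that fell. Each of the 3 turned from above 0 to below 0, as did 0.914% of all named genes. Here and in the lists below, rose and fell refer to the ratio unless a channel is named. Mesp2, a basic helix-loop-helix factor of the presomitic mesoderm, had log2 ratios of 1.02, 1.25 and 1.09 on the day 3 arrays and -1.46, -1.47 and -1.83 on the day 4 arrays. Eomes, a T-box factor required for mesoderm and definitive endoderm, read 0.53, 1.15 and 0.96 at day 3 and -1.28, -1.27 and -1.33 at day 4. Tdgf1, the coreceptor of Nodal also called Cripto, read 0.23, 0.57 and 0.44 and then -1.98, -2.30 and -2.50. These are bulk samples, in which fewer cells of a type and less RNA per cell cannot be told apart. For each of the 3 genes every day 3 array lay above 0 and every day 4 array below it. All 3 are among the largest named swaps, for which the naming rule required no overlap between the days. This separation thus largely follows from how they were chosen. Their changes were -2.71 ± 0.14 (SE) for Mesp2 (adjusted p 1.58e-08), -2.17 ± 0.15 for Eomes (1.73e-07) and -2.67 ± 0.14 for Tdgf1 (1.58e-08). In folds, Mesp2 was 2.17-fold higher in red at day 3 and 3.00-fold higher in green at day 4, and Tdgf1 1.33-fold higher in red and then 4.79-fold higher in green. T, the founding T-box gene of the streak, was well above background in neither channel at either day, so it gives no level here.

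Other clones of these genes were read beside them. A further clone of Mesp2, with green dim at day 3, also met the rule for a swap (adjusted p of the change 1.27e-07), and its other 4 clones did not pass, all of them above background in neither channel at day 3, and 3 of them also at day 4. The 34 clones named for pseudogenes of Tdgf1 had changes of -0.70 to 0.40, with a median of -0.17, and 1 of them passed the test, downward, so they did not share the size of the Tdgf1 clone's change. How far these clones cross-hybridise was not tested. Of the 55 downward swap genes, 17 had another clone, 28 clones in all, of which 15 changed the same way, 0 the opposite way and 13 did not pass, 7 being swaps themselves. For the 44 upward swap genes, 14 had another clone, and of these 26 clones 9 changed the same way, 0 the opposite way and 17 did not pass, 3 being swaps. Over all probes 2.64% changed downward and 3.94% upward, while 0.669% swapped downward and 0.531% upward.

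The single channels show which sample of an array moved. For Mesp2 the mean log2 level in green rose from 7.59 at day 3 to 9.54 at day 4 (adjusted p 2.26e-04), while red went from 8.71 to 7.96 without passing the test (0.0691). Podxl, a sialomucin of the apical membrane of epithelial and endothelial cells, rose in green from 10.14 to 12.57 (0.00165) with red at 12.28 and 12.26 (0.992). Upp1, uridine phosphorylase, rose in green from 11.36 to 13.08 (3.00e-04) and fell in red from 12.96 to 11.54 (0.00139). So the levels crossed in both genes. For Podxl green rose slightly past a red level that did not change past the test, and for Upp1 both channels moved. Across the 102 downward swap probes, 41 rose and 0 fell in green, and 5 rose and 6 fell in red, with medians of 0.99 in green and -0.18 in red. A downward swap requires green to rise relative to red. The counts therefore describe only how that change was divided between the channels. For 56 of the 102 neither channel passed on its own. Over all probes 1.16% rose and 1.11% fell in green, and 0.991% rose and 0.794% fell in red, so that 1.78% changed in red and 2.27% in green. Single-channel values carry array effects that the ratio does not. A probe's dye bias is held by the single channels and by the ratio of each day, and drops out only in the change between the days. The call counts of both channels varied by more than 1.5 times when an array was left out.

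**Figure D2:**
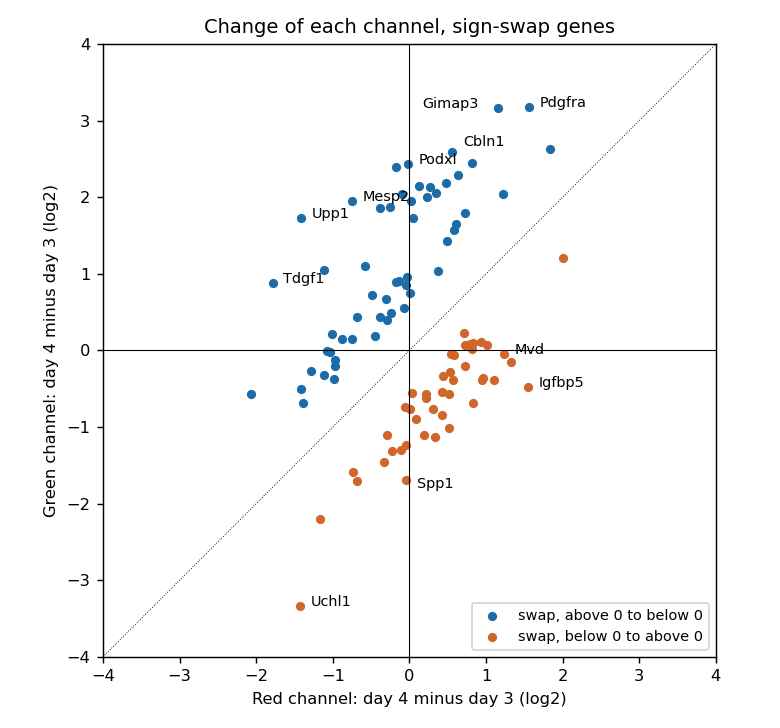
Change from day 3 to day 4 in the red channel (horizontal) and the green channel (vertical), log2, for the 99 sign-swap genes. The rule for a swap places the 55 downward swaps (blue) above the dotted line of equal change. It places the 44 upward swaps (orange) below that line. Of the downward swaps 23 had green past the test and rising. Of the upward swaps 9 had green falling past the test and 5 had red rising past it. Over all named genes 1.73% rose and 1.48% fell in green, and 1.28% rose and 1.10% fell in red.

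Podxl read 2.16, 1.99 and 2.26 at day 3 and -0.23, -0.48 and -0.23 at day 4, a change of -2.45 ± 0.13 (1.68e-08). Cdh2, N-cadherin, the cadherin that mesoderm gains as it leaves the epithelium, read 1.79, 2.26 and 2.21 and then -0.61, -0.61 and -0.22, a change of -2.57 ± 0.15 (3.58e-08). For both genes the day 3 difference was large, 4.39-fold for Podxl and 4.25-fold for Cdh2, and the opposite difference at day 4 small, 1.24-fold and 1.39-fold. Pcdh7, a protocadherin, went from 1.26, 1.08 and 1.35 to -0.23, -1.02 and -0.38, a change of -1.77 ± 0.19 (1.55e-05). Tenm4, a teneurin of the cell surface, swapped from 0.76, 0.81 and 0.60 to -1.10, -1.48 and -1.32, a change of -2.02 ± 0.14 (1.53e-07), on a clone with several PCR bands. A further Podxl clone swapped too and another fell by 2.34 on the log2 scale with no difference left at day 4. The second Cdh2 clone passed the test downward, at -0.60 (0.041). It was unreadable at day 3 and marked as having given no PCR product, so the size of its change is not read.

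The remaining named downward swaps cover growth control, transcription and signalling. Upp1 had the largest change of the named swaps, from 1.75, 1.68 and 1.38 to -1.52, -1.38 and -1.71, or -3.14 ± 0.13 (1.51e-09). Its clone is marked as having given no PCR product and it is the single Upp1 clone, so the gene behind this spot was not checked. Gas1, a membrane protein that binds Hedgehog ligands, went from 0.93, 1.06 and 1.22 to -1.04, -1.12 and -1.38, a change of -2.25 ± 0.12 (1.82e-08), with green rising from 10.83 to 12.69 (0.0154). Its arrays show nearly mirror-image differences, 2.10-fold higher in red and then 2.27-fold higher in green. Ccnd2, cyclin D2, which drives entry into S phase, went from 1.48, 1.83 and 1.22 to -0.46, -0.50 and -0.89, a change of -2.13 ± 0.18 (9.52e-07). It is the 1 of 31 measured cell cycle and replication genes that changed, beside 8.82% of all named genes. Of the other Ccnd2 clones 1 fell by 1.11 on the log2 scale, while the other was not above background. Lmo1, a LIM-only transcriptional cofactor, changed by -2.14 ± 0.14 (1.08e-07), and Phlda2, an imprinted growth regulator of the placenta, by -1.87 ± 0.13 (1.53e-07) with green rising from 11.61 to 13.75. Cbln1, Gimap3 and Tiam2, an exchange factor for Rac, changed by -2.03, -2.00 and -1.92. The 2 other Gimap3 clones stood below 0 at both days, at -0.44 and -0.59 and then -1.09 and -1.02, so they do not share the swap. One day 4 array had no Cbln1 value because its spot was flagged.

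**Figure D3:**
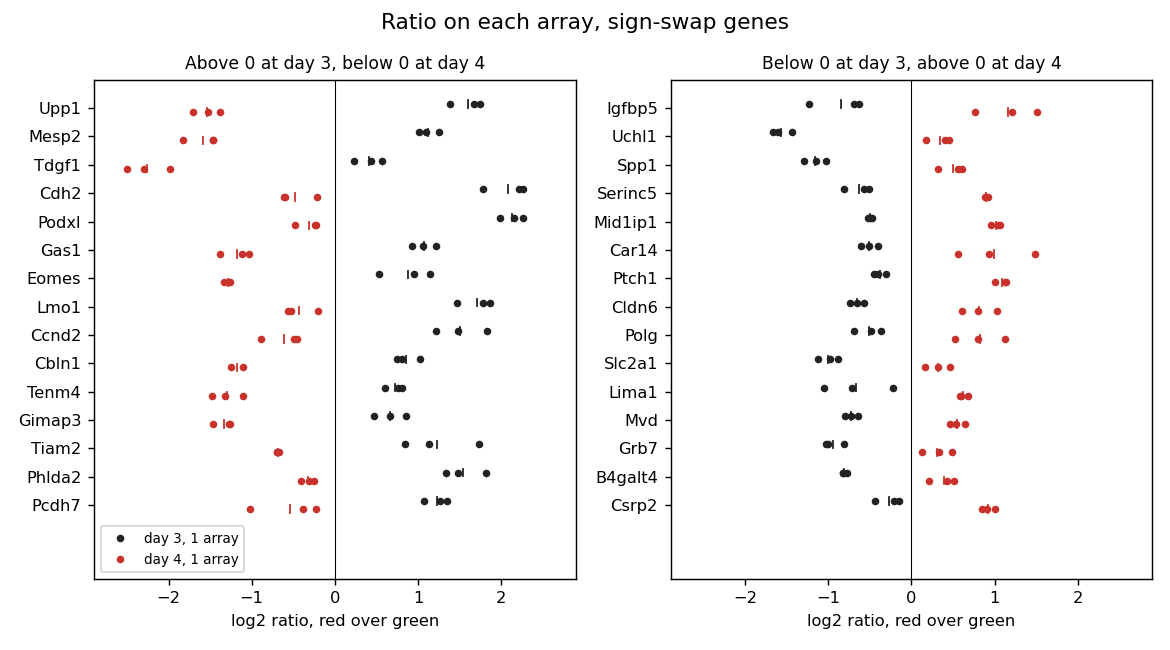
Log2 ratio of red over green on each array for the 15 largest named swaps in each direction. Points are arrays (black day 3, red day 4) and ticks their means. In each gene shown the arrays of the days lie on opposite sides of 0, and Tiam2, Pcdh7, Igfbp5, Car14 and Lima1 have the widest spread within a day. Genes were named here only where the arrays of the days did not overlap.

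The upward swaps were genes lower in red at day 3 and higher in red at day 4, and none of the streak list is among them. Uchl1, a neuronal ubiquitin hydrolase, read -1.44, -1.60 and -1.67 at day 3 and 0.17, 0.41 and 0.46 at day 4, a change of 1.91 ± 0.12 (9.59e-08). Its green level fell from 12.26 to 8.91 (9.35e-04), and red went from 10.69 to 9.26 without passing (0.0793), and a further clone of it swapped as well. Igfbp5, a secreted binding protein of insulin-like growth factors, read -0.69, -1.23 and -0.64 and then 0.76, 1.21 and 1.51. Its red signal was not well above background at day 3, so red was at least 1.72-fold lower there, and the change was at least 1.95 on the log2 scale (adjusted p 1.97e-06). Spp1, the secreted phosphoprotein osteopontin, went from -1.03, -1.15 and -1.29 to 0.61, 0.31 and 0.56, a change of 1.66 ± 0.12 (2.63e-07), with green falling from 9.39 to 7.69 (0.0321). The arrays of the days did not overlap in these genes, which the rule for naming them required.

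Ptch1, the Hedgehog receptor and a target of its own pathway, swapped from -0.45, -0.41 and -0.30 to 1.01, 1.14 and 1.12, a change of 1.47 ± 0.12 (8.99e-07), opposite to Gas1. Cldn6, a tight-junction claudin of early epithelia, swapped from -0.74, -0.57 and -0.65 to 1.03, 0.81 and 0.61, a change of 1.47 ± 0.12 (1.22e-06). Slc2a1, the glucose transporter Glut1, swapped from -0.89, -0.99 and -1.13 to 0.16, 0.46 and 0.32, a change of 1.31 ± 0.12 (2.47e-06). Its day 4 difference of 1.24-fold is small beside the 2.00-fold difference at day 3. Mvd, a mevalonate pathway enzyme, went from 1.65-fold lower in red to 1.47-fold higher, a change of 1.28 (1.47e-06). Serinc5, Mid1ip1, Car14, a membrane carbonic anhydrase, Polg, the mitochondrial DNA polymerase, and Lima1, an actin-binding protein, rose by 1.28 to 1.53. Grb7, a receptor tyrosine kinase adaptor, B4galt4, a galactosyltransferase, and Csrp2, a LIM protein, rose by 1.19 to 1.26. The second Grb7 clone also swapped, while the 3 other Lima1 clones did not pass the test. Across the 81 upward swap probes, 9 rose and 2 fell in red, 1 rose and 18 fell in green, with medians of 0.36 in red and -0.58 in green. An upward swap requires red to rise relative to green, so these counts describe only how the change was divided.

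The day 2 ratios do not enter the rule for a swap, and are given as a description. The day 2 arrays did add to the estimate of the spread behind its tests. With only the 6 arrays of day 3 and day 4, 153 probes swapped in place of 183. Among the 55 downward swap genes the median day 2 ratio was 0.17, with 46 above 0 and 37 above 0 on all 3 arrays. Among the 44 upward swap genes it was -0.10, with 30 below 0 and 24 below 0 on all 3 arrays. Over all 6019 named genes the median was 0.00, with 3002 above 0 and 3017 below 0. Of these genes 1542 were above 0 on all 3 day 2 arrays and 1445 below 0 on all 3.

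Of 5 measured paraxial mesoderm genes 4 fell and 0 rose, with a median change of -1.61, beside 3.72% of all named genes that fell. Besides Mesp2 these were Rspo3, a secreted Wnt agonist, Aldh1a2, the enzyme that makes retinoic acid, and Pdgfra, the platelet-derived growth factor receptor of early mesoderm. Rspo3 read 1.44, 1.36 and 1.69 at day 3 and -0.09, -0.48 and -0.14 at day 4, a change of -1.73 ± 0.13 (3.75e-07), with green rising from 9.18 to 12.23 (0.00132). Pdgfra and Aldh1a2 were above background in neither channel at day 3 and gave no fold there. At day 4 Pdgfra was 1.66-fold and Aldh1a2 2.47-fold higher in green, and their changes passed the test (1.65e-07 and 8.50e-06). Pdgfra is counted among the 55 downward swaps. The fifth gene, Cited1, read 1.09 and 1.41 as day means and did not pass.

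Among 8 cardiac and lateral mesoderm genes 2 rose and 2 fell, beside 5.10% and 3.72% of all named genes. Gata4, a zinc finger factor of heart and endoderm, read 1.55, 2.34 and 2.14 at day 3 and -0.27, -0.27 and -0.34 at day 4, a change of -2.31 ± 0.16 (1.73e-07). Its day 4 ratio did not pass the test (adjusted p 0.0896), so it is not counted as a swap although every day 4 array was below 0. Green rose from 7.65 to 10.93 (2.73e-04) and red went from 9.67 to 10.64 (0.279). The second Gata4 clone was not above background in either channel. Wt1, a regulator of kidney and epicardium development, went from -1.14, -1.08 and -0.78 to 0.01, 0.10 and 0.15, a change of 1.08 (2.45e-05), and Tbx20, a cardiac T-box factor unreadable at day 3, was 1.69-fold higher in red at day 4. Hand1, at 1.18 and 0.64, and Bmp4, at 0.33 and 0.13, did not pass.

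**Figure D4:**
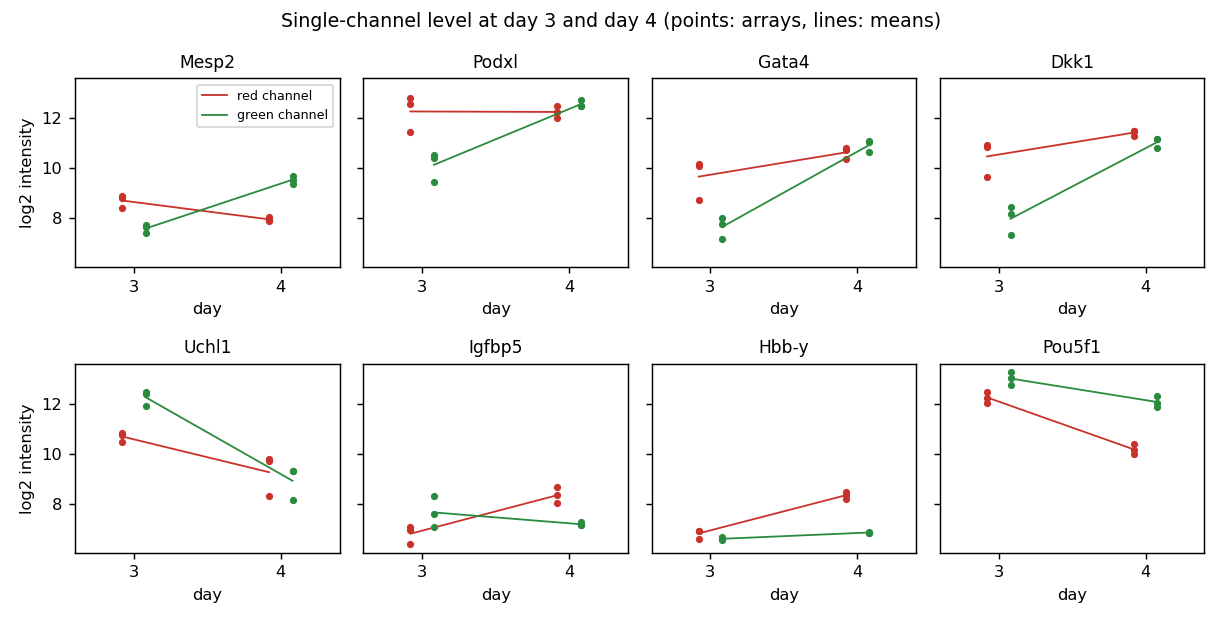
Normalized single-channel log2 intensity at day 3 and day 4 for 8 genes, in red and green; points are arrays and lines join the means. Mean green crosses above mean red in Mesp2 and, by a small margin, in Podxl and Gata4, and stays below it in Dkk1. The Gata4 ratio at day 4 did not pass the test. Mean red crosses above mean green in Uchl1 and Igfbp5. Green falls most in Uchl1, red alone rises past the test in Igfbp5 and Hbb-y, and red falls in Pou5f1.

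Of 6 measured Wnt genes 2 fell and 0 rose, with a median of -0.26, beside 3.72% of all named genes that fell. Dkk1, a secreted Wnt inhibitor of the anterior streak and its derivatives, read 2.40, 2.32 and 2.77 at day 3 and 0.71, 0.11 and 0.32 at day 4, a change of -2.12 ± 0.15 (2.33e-07). It stayed above 0, from 5.64-fold to 1.30-fold higher in red, as green rose from 7.98 to 11.05 (9.35e-04). Of 10 Nodal pathway genes 3 fell and 2 rose, beside 3.72% and 5.10% of all named genes, the same shares as for the BMP genes below. Besides Tdgf1 those that fell were Pmepa1 and Tgif1, both negative regulators of Smad signalling, by 0.86 and 0.61 on the log2 scale to -0.88 and -0.56 at day 4. Smad3, which transmits the signal, rose by 0.59 and swapped from -0.28 to 0.31 (adjusted p 0.00623), a swap that held in 6 of 14 alternatives. Cer1, a secreted Nodal inhibitor, rose by 0.43 on its brightest clone (0.0398) and fell by 0.58 on another, and its 5 other clones did not pass, so no direction is given for it. Of 11 BMP and Id genes 2 fell and 1 rose: Id4, an inhibitor of helix-loop-helix factors, fell by 1.66 (4.02e-06) from 1.86, 1.43 and 1.12 to -0.01, -0.25 and -0.30, and Tbx3 fell by 0.81, while Gata2 rose by 0.68. Id2, Id3 and Gata3 did not pass. Id2 and Id3 read 0.63 and 0.90 at day 3 and 0.92 and 0.74 at day 4.

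Of 9 measured hematopoietic genes 4 rose and 0 fell, with a median change of 0.27, beside 5.10% of all named genes that rose and 3.72% that fell. Hbb-y and Hba-x are the embryonic globins of primitive red cells, and both were above background in neither channel at day 3. At day 4 Hbb-y read 1.47, 1.36 and 1.64, at least 2.81-fold higher in red since green was dim there too, and its change passed the test (6.80e-06). All 3 further Hbb-y clones did so as well. Hba-x read 0.58, 1.19 and 1.70 at day 4, 2.23-fold higher in red (change 2.09e-04). In red Hbb-y rose from 6.81 to 8.33 (0.00217), and green did not pass at 6.59 and 6.84 (0.473). Gata1, the erythroid master regulator, read 0.46, 0.61 and 0.69 at day 3, at least 1.50-fold higher in red because green was dim, and 1.00, 1.71 and 1.65 at day 4, 2.74-fold higher (0.00585). Gata2, a factor of blood progenitors, read 0.30, 0.90 and 0.45 and then 1.15, 1.24 and 1.29, a change of 0.68 ± 0.14 (0.00667), while its second clone, with green dim at day 3, did not pass (0.135). These 4 genes thus had higher red ratios at day 4, with no overlap between the days. The days did not overlap, in either direction, for 23.9% of all named genes. For Hbb-y and Hba-x, named among the largest changes without a swap, the naming rule required that lack of overlap. The adult globins Hba-a1 and Hbb-b1 did not pass, nor did Kit or Cd34.

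Of 7 endothelial genes 2 rose and 1, Podxl, fell, beside 5.10% and 3.72% of all named genes. Pecam1, an endothelial junction protein, went from 0.22, 0.84 and 0.65 to 1.03, 1.27 and 1.56 (0.0118), with green dim at day 3. Adgra2, a receptor of brain vessels, went from 0.12, 0.40 and 0.20 to 0.76, 1.53 and 1.66 (0.00130), again with green dim at day 3, and its second clone, at -0.07 and 0.12, did not pass. Ctla2a had high ratios of 2.27 and 2.83 at the days and no change past the test.

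Of 5 definitive endoderm genes 4 passed upward and 0 downward, beside 5.10% and 3.72% of all named genes. The 4 were Ttr, Trh, Cer1, whose clones disagree, and Tmprss2. Tmprss2, a membrane protease, was unreadable at day 3, and its change passed here (0.0162) but was -0.60 with plain background subtraction. The list's median of 0.54 is Tmprss2's own value, and with that value turned to -0.60 the median is Cer1's 0.43, so no direction is given for the list. Of 15 extraembryonic endoderm genes 5 rose and 3 fell, beside the same shares of all named genes. Ttr, transthyretin, a secreted product of visceral endoderm, read 0.27, 0.35 and 0.08 at day 3 and 1.31, 1.45 and 2.07 at day 4, a change of 1.38 ± 0.16 (4.64e-05). Tdo2, a tryptophan dioxygenase, was unreadable at day 3 and read 1.53, 2.10 and 1.93 at day 4, 3.61-fold higher in red (5.27e-07), with red rising from 6.38 to 9.02 (9.52e-05). Plat, tissue plasminogen activator, also unreadable at day 3, was 2.21-fold higher in red at day 4 (2.56e-05). Dab2, an endocytic adaptor of visceral endoderm, rose by 0.75, and Apoa1 did not pass. The 3 that fell were Gata4, Pdgfra and Lamb1, a laminin chain that swapped from 0.41 to -0.33 on 1 of 3 clones and kept the swap in 7 of 14 alternatives. The list thus held changes in both directions.

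Trophoblast and amnion genes divided as well: of 11 measured, 5 fell and 2 rose, with a median of -0.53, beside 3.72% and 5.10% of all named genes. Tfap2c, an AP-2 factor of trophoblast and germ cells, swapped from 0.83, 0.87 and 1.15 to -0.53, -0.97 and -0.70, a change of -1.68 ± 0.14 (9.52e-07). Eomes and Phlda2 are also in this list, and Peg10 and Igf2, imprinted genes of the placenta, fell by 0.78 and 0.53 with day means above 0 at both days, while the second Igf2 clone, at -0.40, did not pass (0.106). The level of Peg10 rose in both channels, in red from 9.44 to 10.61 (0.0382) and in green from 8.40 to 10.35 (0.00531). Plac1, a placental membrane protein, rose to 1.14, 1.42 and 1.30 at day 4 from an unreadable day 3 (2.24e-05), with red rising from 6.62 to 9.79 (1.17e-04) and green from 6.52 to 8.51 (0.00439). Krt7 also rose. Of 16 imprinted genes 4 fell and 1, Gnas, rose, while Mest, Peg3, Cdkn1c and 8 others did not pass.

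**Figure D5:**
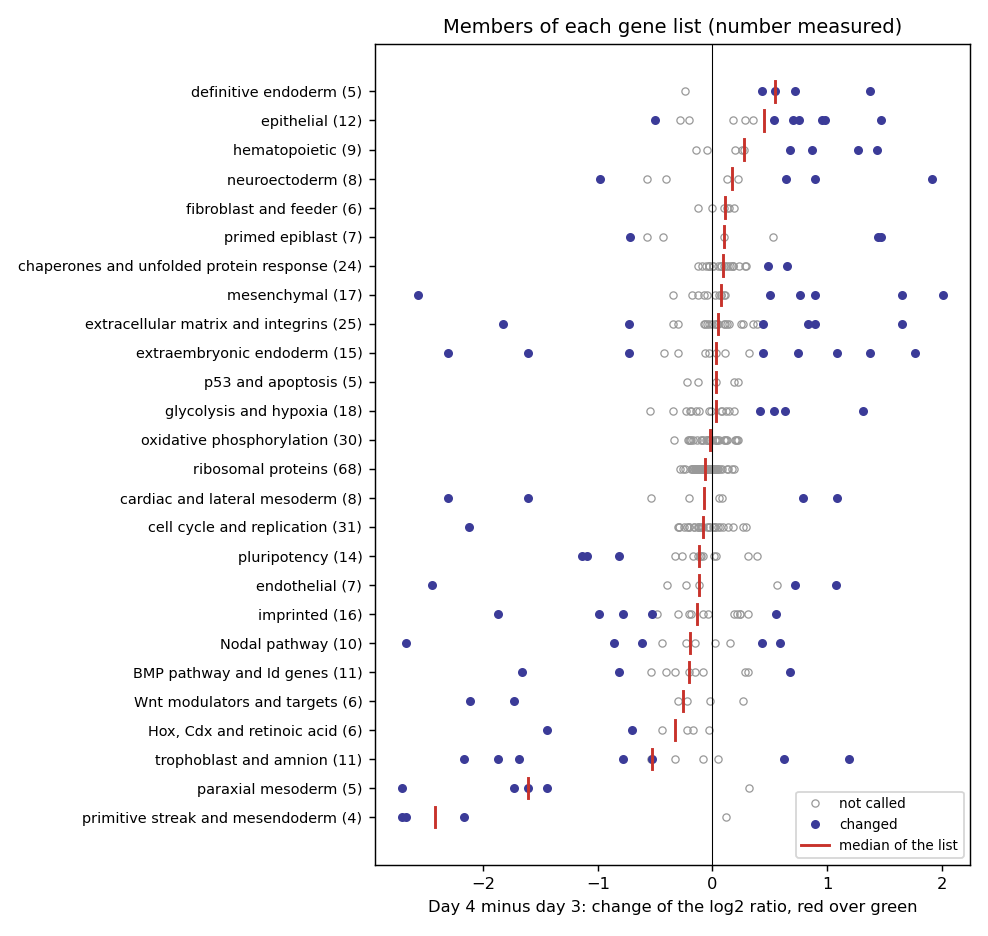
Change of the log2 ratio from day 3 to day 4 for the measured members of 26 gene lists, by brightest probe, ordered by median (red ticks). Filled points passed the test and open points did not. The streak and paraxial mesoderm lists have the lowest medians, the median of the definitive endoderm list at the top is the value of Tmprss2, which is unreadable at day 3, and the ribosomal and respiratory chain members cluster around 0.

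Of 12 measured epithelial genes 6 rose and 1 fell, with a median change of 0.45, beside 5.10% and 3.72% of all named genes. Besides Cldn6 these were Cldn7 and Cldn3, Epcam, an epithelial adhesion molecule, Spint1, a membrane protease inhibitor, and Ap1m2, a sorting adaptor of epithelial cells. Epcam read -0.69, -0.67 and -0.44 at day 3 and 0.07, 0.19 and 0.21 at day 4, a change of 0.76 ± 0.11 (3.95e-04), with green falling from 12.66 to 11.59 (0.00620). Spint1 swapped from -0.46, -0.41 and -0.28 to 0.53, 0.55 and 0.71 (2.33e-05). Cldn7 went from -0.15, -0.20 and -0.19 to 0.64, 0.91 and 0.77 (2.98e-05). Dsp, a desmosomal plakin, fell. Cdh1, E-cadherin, was above background in neither channel at either day on its brightest clone and gives no level. Of 17 mesenchymal genes 5 rose, among them Lgals1 by 0.76 and Cd44 by 0.90, and 1, Cdh2, fell. Vim, at 0.57 and 0.64, did not pass. The 2 further clones of Lgals1, a galectin, rose by 0.82 and 0.80.

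Of 14 measured pluripotency genes 3 fell and 0 rose, with a median of -0.12, beside 3.72% of all named genes that fell. Pou5f1, the Oct4 factor of pluripotent cells, read -0.50, -0.54 and -1.23 at day 3 and -1.65, -1.74 and -2.29 at day 4, a change of -1.14 ± 0.19 (9.95e-04). It was thus lower in red at both days, 1.69-fold and then 3.72-fold, with red falling from 12.25 to 10.17 (0.00136) and green at 13.01 and 12.06 (0.0772). Klf5 and Tbx3, factors of the naive state that also act in trophoblast and mesoderm, fell from ratios above 0: Klf5, 2.52-fold higher in red at day 3 and 1.18-fold at day 4, fell by 1.09 on the log2 scale (3.21e-05). Klf5 fell in red from 11.07 to 9.14 (0.0199), and green did not pass (0.248). The level of Tbx3 rose in both channels, in red from 8.31 to 9.80 (0.00155) and in green from 7.26 to 9.57 (2.26e-04). Zfp42, Dppa3, Dppa5a and Klf4 did not pass. Of 7 primed epiblast genes Cldn6 and Sall2, a zinc finger factor, rose and Etv5, a target of fibroblast growth factor signalling, fell. Sall2 went from -1.36, -1.22 and -1.24 to -0.01, 0.40 and 0.13 (9.87e-06), and its green level fell from 11.11 to 8.99 (0.00169).

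Of 8 neuroectoderm genes 3 rose and 1 fell, beside 5.10% and 3.72% of all named genes. Besides Uchl1, Tubb3, a neuronal tubulin, rose from -0.64, -0.81 and -0.59 to 0.34, -0.12 and 0.42 (5.89e-04). St8sia2, with red dim at both days, stayed below 0. Irx3, an Iroquois homeobox factor, fell from 0.84, 1.62 and 1.22 to 0.24, 0.37 and 0.14 (8.10e-04). Nes and Otx2, at -0.56 and -0.69 at day 3 and -0.96 and -1.26 at day 4, did not pass. The fibroblast and feeder cell list had 0 of 6 members past the test, with a median change of 0.11. Its defining collagen, Col1a2, read 0.22 and 0.31 as day means, and Dcn was above background in neither channel.

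Several further genes had among the largest changes without a swap. Coch, an extracellular protein, fell from 2.12, 2.39 and 2.53 to 0.50, 0.39 and 0.67, a change of -1.82 ± 0.14 (5.96e-07), and Tnfrsf19 by 1.21 (6.80e-06). A clone that the array table calls Nrp fell from 2.01, 3.34 and 2.20 to 0.65, 1.08 and 0.76, with green dim at day 3, a change of at least 1.69 (3.78e-04). Dbt, a subunit of the branched-chain ketoacid dehydrogenase, went further below 0, from -0.49, -0.40 and -0.23 to -2.04, -2.05 and -2.14, a change of -1.71 ± 0.11 (1.08e-07) with red falling from 12.99 to 10.68 (7.11e-04). Its 2 other clones did not pass. Slc39a1, a zinc transporter, rose from -0.20, -0.01 and 0.12 to 1.07, 1.20 and 1.28 (5.54e-06). Ddah1 rose by 1.23 and Lrrfip1 by 1.17, and Lrp2, at -1.06, -1.14 and -1.20 at day 3, was unreadable at day 4. Lhx5 fell on 1 of 5 clones (1.76e-04), from an unreadable day 3 to at least 1.91-fold lower in red at day 4, its other clones not passing.

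None of 68 ribosomal protein genes, 30 respiratory chain genes or 5 p53 and apoptosis genes passed the test, with medians of -0.06, -0.03 and 0.03, against 8.82% over all named genes. Of 18 glycolysis and hypoxia genes 4 rose and 0 fell: Slc2a1, Bnip3, Pfkm and P4ha2. The glycolytic enzymes Pgk1, at -0.56 and -0.91, and Ldha, at -0.21 and -0.75, were below 0 at both days and their change did not pass. Of 24 chaperone genes 2 passed upward, Trib3, unreadable at day 3, and Tcp1, on 1 of 3 clones. Over all named genes 5.10% rose.

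Of the 6 arrays, leaving out the day 4 array of replicate 3 gave the fewest changed probes and sign swaps. Without it 689 probes changed and 90 swapped, 57 downward and 33 upward. The red channel then had 103 calls in place of 272 and the green 182 in place of 346. Of the 35 swap genes that the naming rule selected, 25 still met the rule for a swap without that array and 25 without the day 4 array of replicate 2.

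The intensity of the arrays limits these comparisons. Median intensities at these days lay between 209 and 405 per sample, and a signal-to-noise ratio of 1.4 was reached by 54.3 to 70.1% of gene probes, with fewer in red than in green on each array. Correlations of the ratios over probes were 0.52 to 0.66 among the day 3 arrays, 0.54 to 0.73 among the day 4 arrays and 0.25 to 0.42 between the days. By print block 3.46 to 10.7% of probes changed, with a median of 6.47% over 48 blocks.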

How the data were processed

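RNA of embryoid bodies was amplified, labelled with Cy3 or Cy5 and hybridised to spotted cDNA arrays, per the labels' protocols. For each spot the authors deposited a GenePix intensity (median foreground minus background), a signal-to-noise score and a flag, per the file headers. The deposited value table holds the authors' scaled intensity; its 18 columns equal the scaled channels of the day tables and name the red channel as DOX. Of the columns in the tables, 45 with other per-sample values were not used.

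From the intensities, flagged spots (-75 or below) were left out, normexp background correction (offset 50) and loess within each array (span 0.3, control spots at weight 0) were run in limma 3.58.1 under R 4.3.3, and a linear model with a term for each day was fitted over all 9 arrays (6 residual degrees of freedom, 9.23 added by eBayes). The contrast day 4 minus day 3 was tested two-sided, with Benjamini-Hochberg adjustment over all probes at 0.05. Single channels were scaled between arrays by Aquantile and fitted separately. The fit was tested on simulated data. A probe with a signal-to-noise ratio below 1.4 on all 3 arrays of a day gave a bound for that channel, and the number of arrays limits the precision. Clones were named from the deposited tables, for 9348 of 15247 gene probes (6022 genes), of which 3907 symbols were updated through RefSeq and 1330 kept.

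Named genes were the 15 largest sign swaps in each direction, the 10 largest other changes in each direction, up to 5 changed members of each of 26 lists, and a panel of 15 genes, each by its brightest probe. For the largest swaps and the largest other changes, the 3 day 3 ratios had to lie apart from the 3 day 4 ratios. The members and lists were chosen with earlier results of these data known. Same-numbered arrays of day 3 and day 4 did not deviate together (r = -0.09, 0.20 and 0.04), so the fit has no replicate block.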

Additional observations from a re-analysis of the deposited data

Results flagged for a closer look

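The 30 largest named sign swaps are listed because the red over green ratio lay on opposite sides of 0 at day 3 and day 4 and the change of the ratio passed its own test. Downward, the log2 change was -3.14 for Upp1, -2.71 for Mesp2, -2.67 for Tdgf1, -2.57 for Cdh2 and -2.45 for Podxl. It was -2.25 for Gas1, -2.17 for Eomes, -2.14 for Lmo1, -2.13 for Ccnd2 and -2.03 for Cbln1. It was -2.02 for Tenm4, -2.00 for Gimap3, -1.92 for Tiam2, -1.87 for Phlda2 and -1.77 for Pcdh7. Upward, the fitted value was 2.02 for Igfbp5, whose red channel was dim at day 3, so that its change is given only as at least 1.95. It was 1.91 for Uchl1, 1.66 for Spp1, 1.53 for Serinc5 and 1.52 for Mid1ip1. It was 1.50 for Car14, 1.47 for Ptch1, 1.47 for Cldn6, 1.33 for Polg and 1.31 for Slc2a1. It was 1.28 for Lima1, 1.28 for Mvd, 1.26 for Grb7, 1.20 for B4galt4 and 1.19 for Csrp2. The Upp1 clone is marked as having given no PCR product.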

How the results depend on the processing

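The number of changed probes lay between 689 and 1289 under the 14 alternatives, within 1.5 times the 1003 reported, and the sign swaps numbered 90 to 256. Plain background subtraction shared 689 of the 1003 calls, with 5 of opposite sign, and the authors' scaled values shared 652, with 48.9% of 708 calls upward in place of 59.8%. Without the day 4 array of replicate 3 there were 90 swaps in place of 183. When each array was left out in turn, the swaps numbered 90 to 190, the red channel calls 103 to 283 in place of 272, and the green channel calls 182 to 378 in place of 346. Apart from that array, the red calls fell to 176 without the day 3 array of replicate 3 and to 133 without the day 4 array of replicate 2, and the green calls to 221 and 214. With the replicate number as a block 896 probes changed and 179 swapped, with 250 calls in red and 298 in green; the numbers do not pair the samples. For the 92 named genes, 1160 of 1224 values kept their direction and side of the threshold, 61 no longer passed, 2 newly passed, and Tmprss2 turned to -0.60 with plain subtraction; the cause was not tested. The sign swap of Csrp2 held in 7 of 14 alternatives. Dim spots limit the day 3 values most.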

Other observations

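Further groups were put together after the values had been seen and are given as a description. Of 10 measured genes of sterol and isoprenoid synthesis and transport 7 rose and 0 fell, with a median change of 0.64, beside 5.10% of all named genes that rose. Mvd, Aacs, Fdft1 and Sqle swapped from below 0 to above 0, and Dhcr7, the last enzyme of cholesterol synthesis, rose by 0.66.

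Of 14 immediate early genes 6 fell and 0 rose, with a median change of -0.35, beside 3.72% of all named genes that fell. Fos, a subunit of the AP-1 factor, swapped from 0.60 to -0.52, a change of -1.12 (adjusted p 2.9e-06), and Sgk1, a serum-induced kinase, swapped by -1.06. Egr1 fell by 0.57 on the log2 scale. Of 8 cadherins and protocadherins 5 fell and 0 rose, beside the same 3.72%. Of 6 Hedgehog pathway genes Ptch1 rose while Gas1 and Disp1 fell, beside 5.10% and 3.72% of all named genes. Lrp2 also passed upward, but it was above background in neither channel at day 4.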
